A study of Mus musculus with 90 samples.

Results

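The comparison set lungs of wild-type C57Bl/6 mice that had inhaled styrene at 120 ppm (10 animals) against lungs of wild-type mice at 40 ppm (10 animals), with 1 and 4 weeks of exposure pooled and week kept as a covariate. The members are these 20 arrays of the series' 90, chosen by the strain, level and time in the labels, and all 17097 genes with a probe set of their own were compared. Each array held whole-lung RNA of 1 adult male, and each group of strain, level and time held 5 biological replicates. The wild-type (WT) groups breathed air without styrene (0 ppm), 40 ppm or 120 ppm for 1 week or for 4 weeks, in sessions of 6 hours on 5 days of the week. All animals came from 1 supplier, and they were killed the next morning when exposure had ended. The knockout strain (KO), which lacks CYP2F2, and the transgenic strain (TG), which lacks CYP2F2 and carries 2F1, SA13 and 2B6 as the labels spell them, enter here for 1 test each of the difference between 120 and 40 ppm, with 10 animals at each level. Their changes from air, against 10 KO and 10 TG animals at 0 ppm, are given as differences of means without a test. The labels name no promoter for those transgenes and no hour of killing for single animals.

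Styrene is oxidised in the mouse airway to styrene oxide and ring-hydroxylated products, mainly by the cytochrome P450 enzyme Cyp2f2 of club cells, the secretory cells that line the bronchioles. The products are cleared through glutathione conjugation and hydrolysis, and repeated inhalation is known for killing club cells and for a burst of repair division that fades as exposure goes on. A step that depends on one enzyme can approach a ceiling as the inhaled level rises, so the question put to these data was whether the lung transcriptome still changes between 40 and 120 ppm or has levelled off.

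The expression values are log2 of fluorescence intensity after RMA, which corrects for background, normalizes across arrays and summarises each probe set, so a difference of 1 is a 2-fold difference. Cyp2f2 itself marked the tissue and the strain: in WT lungs its log2 level lay between 12.73 and 13.39 over all 30 animals, where the highest value of any gene on any array was 14.01. One WT array stood apart. The array of animal 3 at 120 ppm for 1 week had the lowest array median of its group, 4.42 against 4.74 to 4.82 in the other 4 animals, and an array quality weight of 0.13 against 0.42 to 1.16 in those 4. Its group had a median gene SD of 0.24, against 0.13 to 0.17 in the other WT groups. Results that rest on this animal are given with and without it. In whole lung, fewer cells of a type and less RNA per cell cannot be told apart.

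No gene passed the test between 120 and 40 ppm. With limma's moderated test and Benjamini-Hochberg adjustment at 0.05, 0 of 17097 genes were called (0%), and the smallest adjusted p was 0.9999. At an unadjusted p under 0.05 there were 685 genes (4.01%), 186 of them higher (1.09%) and 499 lower (2.92%) at 120 ppm. The same held within each time: 0 genes were called at 1 week (0%, with 676 or 3.95% at the unadjusted threshold) and 0 at 4 weeks (0%, with 361 or 2.11%). The difference between the times in the dose effect was also tested, and 0 genes were called (0%, with 303 or 1.77% at the unadjusted threshold). The count stayed at 0 in each of the 31 settings of the pooled comparison, including each of the 20 that left out 1 animal.

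A p that misses the threshold does not show that the levels were equal, so the 95% confidence interval of each difference was read as well. For 16825 genes (98.4%) the whole interval of the pooled difference lay within a 1.5-fold change either way, and the median half-width of the interval was 0.16 on the log2 scale. The share was 92.8% at 1 week and 95.3% at 4 weeks, where each difference rests on 5 against 5 animals. Both weeks shared 1 estimate of the spread, with a median half-width of 0.23 at each. The wider spread of the 120 ppm group at 1 week thus entered both alike, so the intervals at 1 week may be too narrow and their share too high. The median difference over all genes was -0.02, and it was 0.00 when the arrays were quantile normalized again. Only 6 genes differed by more than 1.5-fold in the pooled comparison. These were Pfdn5, C2cd6, 4932414N04Rik, Ccdc7b, Tpbpb and Lrat, with log2 differences of 0.98, 0.75, 0.67, 0.63, 0.63 and 0.60, and none passed the test. They are named because of their size, after their values were seen. Probe sets of the same gene did not all give such a size. The 3 of Pfdn5 ran from 0.05 to 0.98, the 2 of Tpbpb gave 0.06 and 0.63, and the 2 of Lrat 0.48 and 0.60.

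The absence of calls between the levels stood beside many calls at either level against air. Against the 10 WT animals at 0 ppm, 513 genes passed at 40 ppm (3%), 391 higher (2.29%) and 122 lower (0.714%). At 120 ppm 980 genes passed (5.73%), 560 higher (3.28%) and 420 lower (2.46%), a split that became 1014 higher and 413 lower when the arrays were quantile normalized again. Both comparisons share the air controls and 1 estimate of the spread, so their values are set side by side without a test of their likeness. Single animals moved both counts. At 40 ppm the count was 1044 without animal 3 at 120 ppm for 1 week, 800 without air animal 1 at 1 week and 307 without air animal 2 at 1 week. At 120 ppm it was 2436, 1594 and 552 without the same 3 animals, 638 without air animal 2 at 4 weeks and 627 without animal 2 at 120 ppm for 4 weeks.

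To choose responding genes without using the difference between the levels, genes were called on the mean of both levels against air, a contrast at right angles to 120 minus 40 ppm. This choice was made after the data had been seen. Contrasts at right angles are independent only where the groups have the same spread. The median gene SD at 1 week was 0.24 at 120 ppm and 0.13 at 40 ppm, so the choice was not wholly free of the difference. In all, 1373 genes were called on the mean (8.03%), 862 higher (5.04%) and 511 lower (2.99%) with styrene. Among the 862 higher genes the median difference between 120 and 40 ppm was 0.01, with quartiles of -0.04 and 0.07, and the interval lay within 1.5-fold for 817 (94.8%). Among the 511 lower genes the median difference was -0.06, with quartiles of -0.10 and -0.02, and 503 (98.4%) had intervals within 1.5-fold. The lower genes had a median change from air of -0.25 at 40 ppm and -0.31 at 120 ppm, and the higher genes 0.31 at both. These medians are smaller than 1.5-fold (0.58 on the log2 scale), so the share within it cannot show that the response levelled off. The change at 40 ppm was 95.9% of that at 120 ppm in the median higher gene (quartiles 80.8% and 112%). In the median lower gene it was 81.2% (69.7% and 94.0%), and both changes share the air animals. At the unadjusted threshold 20 of the higher genes were higher still at 120 ppm and 12 were lower, and of the lower genes 25 were lower still and 2 were higher. The number of genes called on the mean was 2789 without animal 3 at 120 ppm for 1 week, 2083 without air animal 1 and 777 without air animal 2 at 1 week, and 859 without air animal 2 at 4 weeks.

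**Figure D1:**
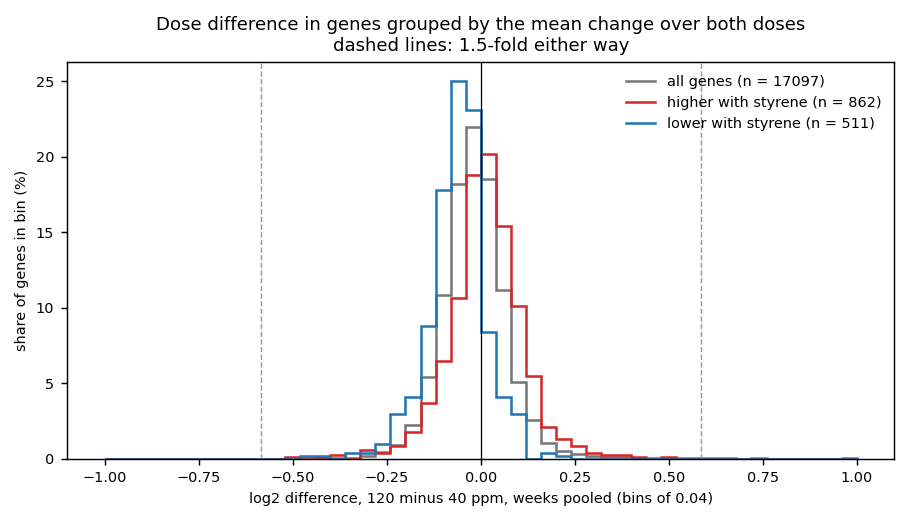
Distribution of the log2 difference between 120 and 40 ppm (x axis) as the share of genes per bin (y axis, percent), for all 17097 genes in grey, the 862 genes higher with styrene in red and the 511 lower in blue. All 3 curves centre close to 0, with medians of -0.02, 0.01 and -0.06, and nearly all genes lie inside the dashed lines at 1.5-fold.

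A second contrast asked whether the log2 change grew in proportion to the inhaled level. It takes 120 ppm minus 3 times 40 ppm plus 2 times 0 ppm and is 0 under proportion. It shares the 40 and 0 ppm animals with the change at 40 ppm, so its sign is not read against that change. Here 89 genes passed (0.521%), 73 negative (0.427%) and 16 positive (0.0936%). The choice of the log2 scale and of ppm as the measure of exposure is part of this contrast. The most negative genes were Dbp (-5.76), Agr2 (-3.73), Ces1g (-3.52), Retnla (-3.32) and Tex11 (-3.12). The most positive were Asgr1 (4.01), Arntl (3.60), Pon1 (3.50), Npas2 (3.16) and Nr4a3 (2.82). The direction of Nr4a3, an orphan nuclear receptor of the immediate early class, turned to -0.48 when its 3 probe sets were summarised by their median. The count was 198 without animal 3, 145 without animal 2 and 157 without animal 5 at 120 ppm for 1 week. It was 42 and 45 without animals 3 and 4 at 40 ppm for 1 week, 48, 55 and 50 without animals 1, 4 and 5 at 40 ppm for 4 weeks, and 59 without air animal 2 at 1 week. The call for Agr2 was lost without animal 3 or 4 at 40 ppm for 1 week or animal 1 at 40 ppm for 4 weeks.

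The circadian clock held several of the genes that changed most against air. Arntl (BMAL1), Npas2 and Clock are the activators of the clock. They drive the Per and Nr1d repressors and the output factors Dbp, Tef and Hlf through a DNA motif, the E-box. Dbp, Tef and Hlf in turn bind a D-box, where Nfil3 opposes them. Of the 4 clock activators measured, 3 fell at 40 ppm and the same number at 120 ppm, beside 0.714% and 2.46% of all genes that fell. Of the 13 clock repressors and output genes 8 rose and 2 fell at 40 ppm and 9 rose and 2 fell at 120 ppm, beside 2.29% and 3.28% of all genes that rose. No gene of either list differed between the levels by the test. With no hour of killing given for single animals, styrene and the hour of killing cannot be told apart for clock genes. The same limit applies to Dbp, Arntl and Npas2 in the contrast of proportion.

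RefSeq promoter windows of 300 bases (250 before to 50 after the start, GRCm38.p6) are shown for a clock gene of each motif and for a pair of mitosis genes, since clock and mitosis genes were called together against air at both levels. Ciart, a repressor of the clock, holds CACGTG (the E-box, its own reverse complement) at 3 places in chr3:95882179-95882478, minus strand. Per3, a period gene, holds TTATGNAA (the D-box, on either strand) at 2 places in chr4:151044616-151044915, minus strand. Capitals mark the motif, and each sequence runs 5′ to 3′ on the gene's strand.

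Ciart: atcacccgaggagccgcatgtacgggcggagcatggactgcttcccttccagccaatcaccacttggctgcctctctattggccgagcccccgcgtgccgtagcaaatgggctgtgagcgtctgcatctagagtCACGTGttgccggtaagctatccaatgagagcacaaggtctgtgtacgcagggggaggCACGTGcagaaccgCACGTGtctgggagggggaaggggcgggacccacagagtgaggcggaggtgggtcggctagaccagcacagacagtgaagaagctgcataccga
Per3: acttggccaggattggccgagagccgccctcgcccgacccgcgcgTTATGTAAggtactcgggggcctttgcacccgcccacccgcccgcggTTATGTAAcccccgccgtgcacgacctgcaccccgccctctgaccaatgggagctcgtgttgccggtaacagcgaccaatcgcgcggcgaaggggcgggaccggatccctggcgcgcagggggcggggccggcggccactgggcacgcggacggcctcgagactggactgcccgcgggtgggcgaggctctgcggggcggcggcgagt

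The E-box letters were in 5 of the 11 clock repressor and output genes with a window (45.5%), in 0 of the 4 clock activators, in 10.2% of the 13605 tested genes with a window, and in 7.15% of all 32851 windows. The 5 were Bhlhe41, Ciart, Cry1, Per1 and Tef. The D-box letters were in 2 of the 11 (18.2%), Per1 and Per3, in 2.86% of the tested genes and in 3.38% of all windows. A match is a description of these letters only, and a window without one says nothing of the factor.

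Dbp, the D-box activator, rose 8.26-fold at 40 ppm and 10.4-fold at 120 ppm, with log2 changes of 3.05 ± 0.24 and 3.38 ± 0.24 (SE). At 1 week the log2 values were 8.78, 7.77, 8.85, 9.34 and 9.18 in the 5 animals at 40 ppm and 8.76, 9.01, 8.39, 9.05 and 9.02 in those at 120 ppm. At 4 weeks they were 8.15, 8.17, 9.09, 8.65 and 8.32 at 40 ppm and 8.26, 9.11, 9.17, 9.33 and 9.50 at 120 ppm. Air animals lay between 4.43 and 6.68, so every exposed animal was above every control while the exposed groups overlapped at both times. The pooled difference between the levels was 0.33, with an interval from -0.06 to 0.72 and an adjusted p of 0.9999. Per3 rose by 1.21 ± 0.14 and 1.33 ± 0.14 on the log2 scale, with a difference of 0.12 between the levels (interval -0.18 to 0.42). Among the other output and repressor genes, Nr1d2 rose by 1.16 and 1.25 and Hlf by 1.01 and 1.19, with differences of 0.09 and 0.17, while Per1 stood at -0.10 and 0.02 and did not pass. Ciart was above air by 0.38 ± 0.15 at 40 ppm (limma adjusted p = 0.172) and rose by 0.64 ± 0.15 at 120 ppm (limma adjusted p = 0.0104), and its difference of 0.26 did not pass (interval -0.05 to 0.57). The call for Ciart was lost with a spread per group.

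Among the activators, Arntl fell by 2.03 on the log2 scale at 40 ppm and by 2.50 at 120 ppm, and Npas2 fell by 1.79 and by 2.20. For Npas2, which was dim in 3 of the 4 exposed groups, the 1-week values were 4.58, 5.12, 4.62, 3.99 and 4.20 at 40 ppm and 4.30, 4.43, 3.99, 4.08 and 3.58 at 120 ppm. The 4-week values were 4.26, 4.71, 3.85, 4.23 and 5.02 at 40 ppm and 4.92, 3.73, 3.99, 4.05 and 3.37 at 120 ppm. Air values were 5.34 to 6.54, above all exposed animals, and the ranges at 40 and 120 ppm overlapped at each time. Its pooled difference was -0.41, with an interval from -0.79 to -0.04 and an unadjusted limma p of 0.0318 that did not survive adjustment. Arntl differed by -0.47 (interval -0.99 to 0.06), -0.15 at 1 week and -0.78 at 4 weeks. Clock fell by 0.49 and by 0.56, with a difference of -0.07 (interval -0.28 to 0.13). Nfil3 fell by 1.00 and by 1.36, and its difference was -0.36 (interval -0.75 to 0.03).

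In Dbp, Arntl, Npas2 and Nfil3 the estimate at 120 ppm was the larger one in size. The 4 clock activators had a median difference of -0.25 and the 13 repressors and output genes one of 0.12, beside -0.02 over all genes. Over the 31 settings the first ranged from -0.30 to -0.21 and the second from 0.06 to 0.18.

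**Figure D2:**
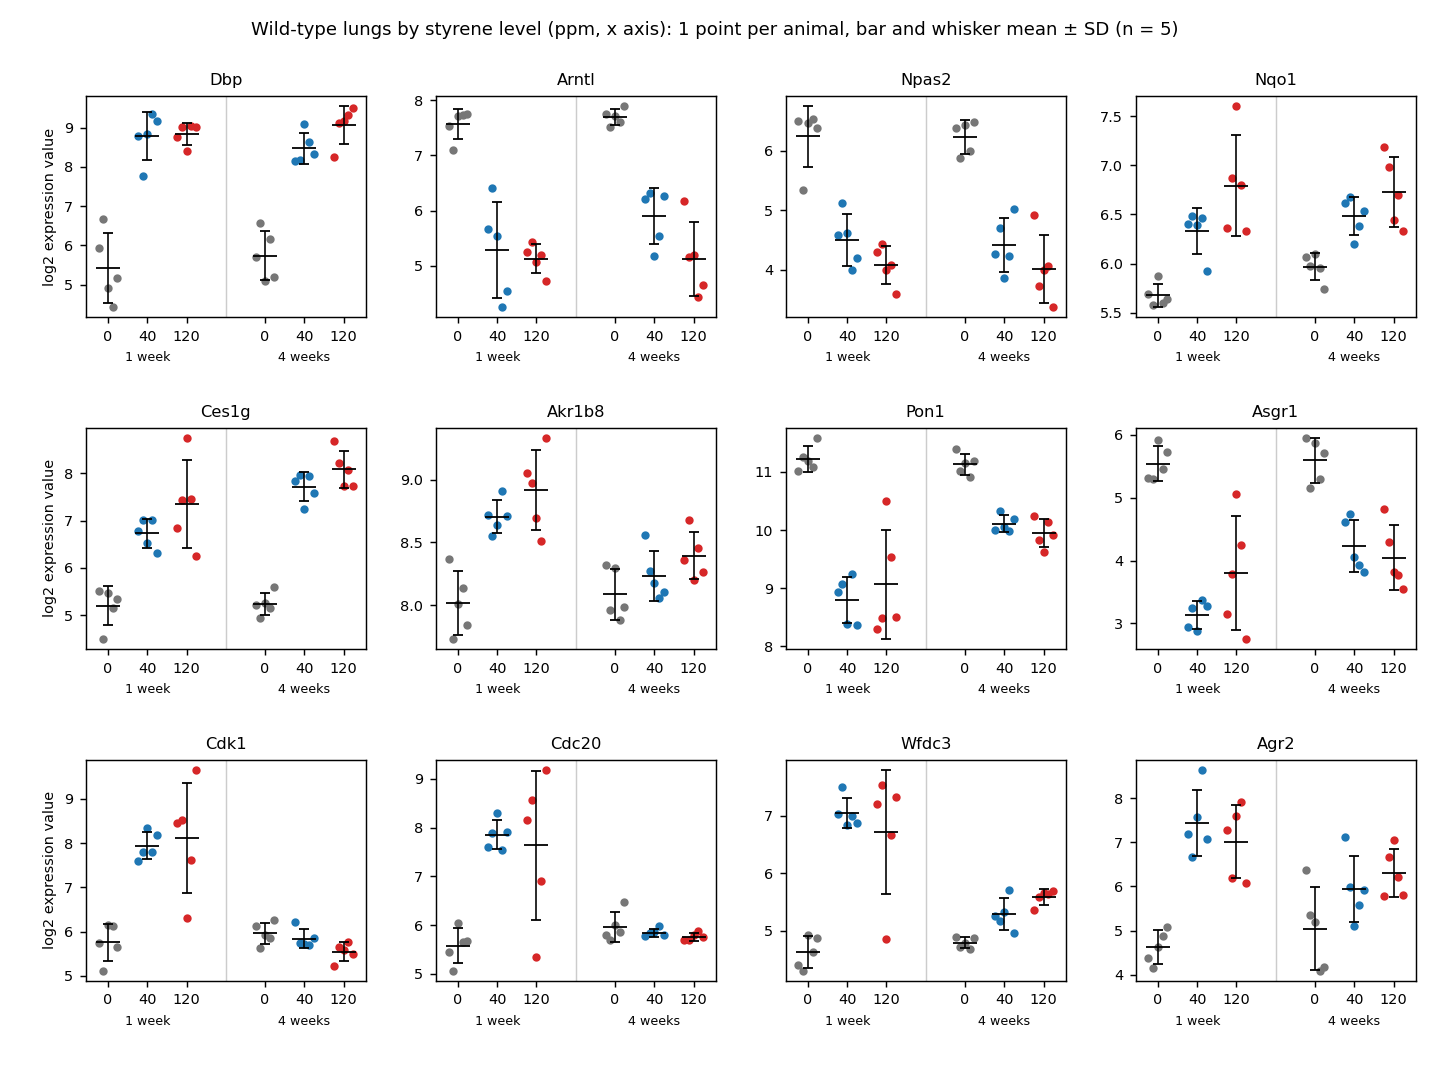
Log2 expression values (y axis) of 12 genes in WT lungs by styrene level in ppm (x axis) at 1 and 4 weeks, 1 point per animal in order of its number, with mean and SD of 5 animals as bar and whisker. Both exposed levels sit together and away from air for Dbp, Arntl, Npas2, Ces1g and Pon1, and animal 3 at 120 ppm for 1 week, the middle red point, lies nearest the air animals for Pon1, Asgr1, Cdk1, Cdc20 and Wfdc3 and is the highest of its group for Nqo1 and Ces1g.

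Several enzymes that clear reactive products rose at both levels and had estimates further above air at 120 ppm, without passing the test between the levels. Nqo1, a quinone reductase driven by the oxidant-sensing factor Nrf2, had 1-week values of 6.40, 6.49, 6.39, 6.46 and 5.93 at 40 ppm and 6.36, 6.88, 7.60, 6.80 and 6.34 at 120 ppm. At 4 weeks the values were 6.61, 6.68, 6.20, 6.38 and 6.53 at 40 ppm and 7.19, 6.98, 6.44, 6.70 and 6.33 at 120 ppm. Every exposed animal was above all air animals of its own time, which lay at 5.58 to 5.88 at 1 week and 5.74 to 6.09 at 4 weeks. At each time 3 animals at 120 ppm exceeded the highest at 40 ppm and the others lay inside the lower group's range. Nqo1 rose by 0.58 ± 0.12 at 40 ppm and by 0.94 ± 0.12 at 120 ppm. The difference was 0.36 ± 0.14, with an interval from 0.06 to 0.65 and an unadjusted limma p of 0.0195, and it was 0.25 without animal 3 at 120 ppm for 1 week.

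Ces1g, a carboxylesterase, had 1-week values of 6.79, 7.02, 6.52, 7.01 and 6.31 at 40 ppm and 6.85, 7.43, 8.75, 7.45 and 6.25 at 120 ppm. At 4 weeks it measured 7.83, 7.97, 7.24, 7.94 and 7.59 at 40 ppm and 8.67, 8.23, 7.74, 8.08 and 7.72 at 120 ppm. All exposed animals were above the air range of 4.50 to 5.60, and the exposed groups overlapped at both times. Its change was 2.01 ± 0.20 at 40 ppm and 2.50 ± 0.20 at 120 ppm. The difference of 0.49 (interval 0.04 to 0.94), which did not pass after adjustment, became 0.32 without animal 3 at 120 ppm for 1 week, a smaller value by more than 1.5 times.

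Of the 19 Nrf2 targets and glutathione synthesis genes measured, 5 rose and 0 fell at each level (3 at 40 ppm without air animal 2 at 1 week, and 8 at 120 ppm without animal 3 at 120 ppm for 1 week), beside 2.29% and 3.28% of all genes that rose at 40 and 120 ppm, among them Nqo1, Gpx2 (0.50 and 0.69), the carbonyl reductase Cbr3 (0.44 and 0.65) and the aldo-keto reductase Akr1b8 (0.42 and 0.60). The list's median difference between the levels was 0.02. Of the 16 glutathione S-transferases, which attach glutathione to electrophiles such as styrene oxide, 2 rose at each level, beside the same shares of all genes. These were Gsto1 (0.58 and 0.75) and Gstt2 (0.37 and 0.53). Between the levels 15 of the 16 transferases had a difference above 0, with a median of 0.10, while 6804 of all 17097 genes had one. No transferase passed, and all 16 intervals lay within 1.5-fold. The list's median stayed between 0.06 and 0.13 over the 31 settings.

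Of the 20 P450 and styrene metabolism genes, 1 rose and 4 fell at 40 ppm and 2 rose and 3 fell at 120 ppm, beside 0.714% and 2.46% of all genes that fell. The number that fell at 120 ppm was 7 without animal 3 at 120 ppm and 0 without air animal 2, both at 1 week. Cyp2f2 had 1-week log2 values of 12.93, 13.06, 12.82, 12.97 and 12.87 at 40 ppm and 12.84, 12.84, 13.26, 13.23 and 12.73 at 120 ppm, against 13.23 to 13.33 in air. The 5 animals at 40 ppm were all below the air group, while animals 3 and 4 at 120 ppm lay inside its range. At 4 weeks the values were 13.06, 13.10, 12.96, 13.23 and 13.14 at 40 ppm and 13.33, 13.14, 13.17, 13.22 and 13.09 at 120 ppm, and both overlapped the air range of 13.21 to 13.39. The fall of 0.25 at 40 ppm passed (limma adjusted p = 0.0127) and the value of -0.18 at 120 ppm did not (limma adjusted p = 0.0623). Without animal 3 or animal 4 at 120 ppm for 1 week the latter was -0.22 or -0.21 and passed. The difference between the levels was 0.07, with an interval from -0.07 to 0.21. Among the 11 club cell markers the median difference was 0.02, and no marker passed between the levels. That median ran from -0.03 without animal 4 to 0.05 without animal 2, both at 120 ppm for 1 week. Its sign turned in 4 of the 31 settings. Against air 1 marker fell at 40 ppm and 0 at 120 ppm, beside 0.714% and 2.46% of all genes. Without animal 3 at 120 ppm for 1 week 4 fell at 120 ppm, so the count rested on single animals.

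**Figure D3:**
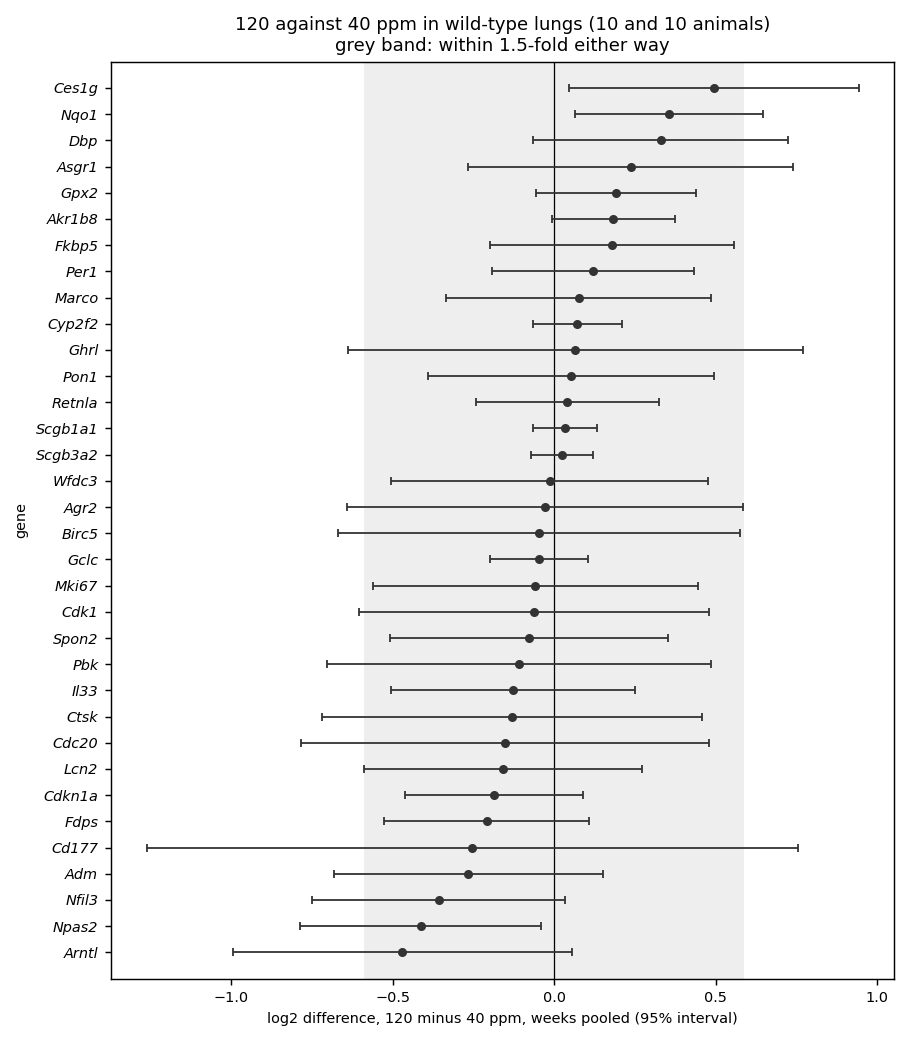
Pooled log2 difference between 120 and 40 ppm (x axis, point with 95% interval) for 34 genes that an earlier description of these data reported for single levels, ordered by the estimate. The grey band marks 1.5-fold either way. Ces1g, Nqo1 and Npas2 have intervals that leave out 0, none passes after adjustment, and the narrowest intervals are those of the club cell genes Scgb3a2, Scgb1a1 and Cyp2f2.

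Retnla, Agr2 and Pon1 had pooled differences between the levels close to 0, which for Agr2 averaged opposite values at the 2 times. Retnla, a secreted protein of alternatively activated macrophages, had 1-week values of 11.91, 12.05, 12.28, 12.27 and 12.00 at 40 ppm and 12.62, 11.85, 12.13, 11.91 and 12.36 at 120 ppm, with air animals between 9.56 and 10.62. At 4 weeks it measured 12.59, 11.36, 11.71, 11.19 and 11.36 at 40 ppm and 11.69, 11.73, 11.60, 11.78 and 11.46 at 120 ppm. The exposed groups overlapped at both times, and at 4 weeks 1 air animal at 11.81 lay among them. Retnla rose by 1.68 ± 0.20 and 1.72 ± 0.20, and its difference was 0.04 (interval -0.24 to 0.32). Agr2, a protein-folding enzyme of mucous cells, rose by 1.85 ± 0.30 and 1.82 ± 0.30, with a difference of -0.03 whose interval ran from -0.64 to 0.59. Its difference was -0.42 at 1 week and 0.36 at 4 weeks. For Pon1, an esterase carried by lipoproteins, the 1-week values were 8.94, 9.07, 8.39, 9.23 and 8.37 at 40 ppm and 8.30, 8.49, 10.51, 9.54 and 8.49 at 120 ppm, against 11.01 to 11.59 in air, so that animal 3 came nearest to air. Pon1 fell by 1.72 and by 1.67, and the receptor subunit Asgr1 fell by 1.88 and by 1.65, with differences of 0.05 (interval -0.39 to 0.49) and 0.24 (interval -0.27 to 0.74). The difference was 0.27 at 1 week and -0.16 at 4 weeks for Pon1 and 0.66 and -0.19 for Asgr1. Without animal 3 at 120 ppm for 1 week the pooled differences of Pon1 and Asgr1 were -0.13 and 0.06, and Asgr1 was dim (mean below the lowest array median, 4.42) in all 4 exposed groups.

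The WT group at 120 ppm for 1 week was the least uniform for genes of dividing cells. Cdk1, the kinase that starts mitosis, measured 7.60, 7.80, 8.34, 7.80 and 8.18 at 40 ppm and 8.45, 8.53, 6.32, 7.62 and 9.66 at 120 ppm after 1 week, with air animals at 5.12 to 6.16. Cdc20, the activator of the anaphase-promoting complex, measured 7.61, 7.89, 8.30, 7.55 and 7.92 at 40 ppm and 8.15, 8.57, 5.35, 6.91 and 9.19 at 120 ppm, with air animals at 5.07 to 6.04. At 40 ppm all 5 animals stood clear of air, whereas at 120 ppm 1 animal was the highest of all, 2 were slightly above the lower group or near its top, 1 lay at the bottom of the lower group or below it, and animal 3 was close to or inside the air range. After 4 weeks Cdk1 was 5.69 to 6.21 at 40 ppm and 5.22 to 5.77 at 120 ppm, within or below the air range of 5.64 to 6.27. The pooled differences between the levels were -0.06 for Cdk1 (interval -0.60 to 0.48) and -0.15 for Cdc20 (interval -0.78 to 0.48), and 0.14 and 0.12 without animal 3.

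Both genes hold TTTGAA in their promoter windows, the letters of the cell cycle homology region (CHR) through which the DREAM complex represses mitosis genes in resting cells. Cdk1 has it at 2 places in chr10:69352863-69353162 and Cdc20 at 1 place in chr4:118437294-118437593, both on the minus strand of GRCm38.p6, in capitals in the RefSeq windows.

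Cdk1: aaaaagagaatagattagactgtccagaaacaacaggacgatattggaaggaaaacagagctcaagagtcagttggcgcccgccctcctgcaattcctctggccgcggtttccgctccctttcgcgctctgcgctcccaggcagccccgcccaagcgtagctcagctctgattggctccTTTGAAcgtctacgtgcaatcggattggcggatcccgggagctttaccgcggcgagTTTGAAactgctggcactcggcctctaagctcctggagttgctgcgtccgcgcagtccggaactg
Cdc20: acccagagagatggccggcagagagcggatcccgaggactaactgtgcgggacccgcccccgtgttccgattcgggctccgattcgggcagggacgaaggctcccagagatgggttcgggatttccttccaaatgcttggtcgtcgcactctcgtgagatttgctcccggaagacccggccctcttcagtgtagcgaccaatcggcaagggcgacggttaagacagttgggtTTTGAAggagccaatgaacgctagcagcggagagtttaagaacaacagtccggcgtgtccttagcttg

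Read on either strand, these letters were in 17 of the 21 mitosis genes with a window (81%) and in 3 of 18 DNA replication genes (16.7%), beside 15.6% of the tested genes and 17.9% of all windows. Of the 25 mitosis genes measured 7 rose at 40 ppm and 7 at 120 ppm, and 0 fell, beside 2.29% and 3.28% of all genes that rose. The counts were 11 and 20 without animal 3 at 120 ppm for 1 week, and 1 and 4 without air animal 2 at 1 week, animals that also moved the counts over all genes. At 1 week their median change from air was 1.26 at 40 ppm and 1.49 at 120 ppm, and at 4 weeks it was -0.16 and -0.31. The mean over the list was 5.58, 5.60, 5.97, 5.64 and 6.12 in the animals at 40 ppm for 1 week and 6.20, 6.10, 4.70, 5.36 and 7.16 in those at 120 ppm, with air animals between 4.23 and 4.70. Animal 3 lay at the top of the air range and animal 5 had the highest mean of all 30 WT animals. At 4 weeks the means were 4.39 to 4.78 at 40 ppm and 4.34 to 4.55 at 120 ppm, beside 4.56 to 5.03 in air. The median pooled difference over the list was -0.06, and it was 0.12 without animal 3 and -0.22 without animal 5 at 120 ppm for 1 week, so its direction rested on single animals.

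The DNA replication genes were the list with the highest median difference between the levels, 0.12, over 24 genes, of which 19 were above 0. Against air 6 of them rose at 40 ppm and 14 at 120 ppm, and 0 fell, beside 2.29% and 3.28% of all genes that rose, while no member passed between the levels. The count at 40 ppm was 15 without animal 5 at 120 ppm and 2 without air animal 2, and that at 120 ppm was 23 without animal 3 and 9 without air animal 2, all at 1 week. The list's median change from air was 0.81 at 40 ppm and 1.04 at 120 ppm at 1 week, and 0.01 and 0.03 at 4 weeks. Its median difference between the levels was 0.19 at 1 week and -0.01 at 4 weeks, so the pooled value came from 1 week. The licensing factor Cdc6 rose by 0.83 and by 0.96. Tk1, a thymidine kinase, was 0.83 above air at 40 ppm (limma adjusted p = 0.0549) and rose by 1.08 at 120 ppm (limma adjusted p = 0.00740). The helicase subunit Mcm5 was 0.54 above air at 40 ppm (limma adjusted p = 0.0624) and rose by 0.73 at 120 ppm (limma adjusted p = 0.00677). The median over the list ranged from 0.00 without animal 5 to 0.20 without animal 3 at 120 ppm for 1 week. The mean over the list was 6.31 to 6.67 at 40 ppm for 1 week and 5.73 to 7.73 at 120 ppm, with the lowest value in animal 3 and the highest in animal 5.

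**Figure D4:**
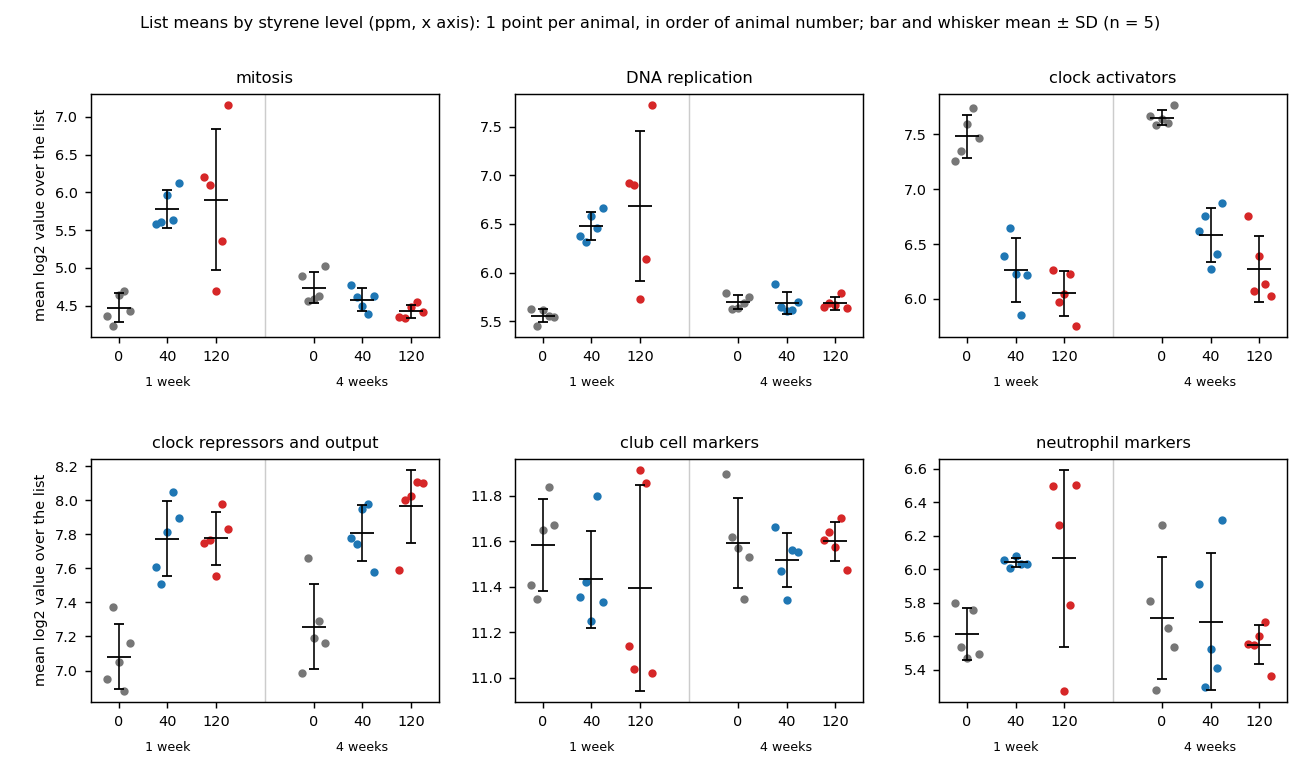
Mean log2 value over each of 6 gene lists (y axis) by styrene level in ppm (x axis) at 1 and 4 weeks, 1 point per animal in order of its number, with mean and SD of 5 animals. The 120 ppm group at 1 week spreads from 4.70 to 7.16 for mitosis while the 40 ppm group spans 5.58 to 6.12, and the clock lists show no such spread.

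The spread of that group reached other cell classes. Ghrl (ghrelin) measured 6.52, 6.86, 7.72, 6.56 and 7.31 at 40 ppm for 1 week and 8.05, 8.37, 4.49, 5.88 and 6.74 at 120 ppm, with air animals at 4.04 to 4.56. Cd177, a neutrophil surface protein, measured 6.78, 6.33, 8.95, 6.77 and 7.48 at 40 ppm and 8.71, 8.29, 3.77, 4.84 and 6.90 at 120 ppm, with air animals at 3.88 to 4.58. Wfdc3, a small secreted protein of the whey acidic protein family, measured 7.04, 7.50, 6.84, 6.99 and 6.87 at 40 ppm and 7.20, 7.54, 4.87, 6.67 and 7.32 at 120 ppm, with air animals at 4.31 to 4.93. Animal 3 was inside or below the air range for all 3 genes while its Dbp, at 8.39, and its Arntl, at 5.07, lay with the other exposed animals. Pooled over the weeks, the difference between the levels was -0.25 for Cd177 (interval -1.26 to 0.75) and -0.01 for Wfdc3 (interval -0.51 to 0.48), and 0.10 and 0.22 without animal 3. The means over 15 neutrophil markers were 6.50, 6.27, 5.27, 5.78 and 6.50 at 120 ppm against 6.01 to 6.08 at 40 ppm, and those over 11 club cell markers were 11.14, 11.04, 11.92, 11.86 and 11.02 against 11.25 to 11.80. Animals 3 and 4, the lowest of this group for mitosis, were also its lowest for neutrophil markers and its highest for club cell markers. The means over 14 skeletal and heart muscle markers were 4.92, 4.38, 6.09, 5.69 and 4.76 at 120 ppm against 5.02 to 6.16 at 40 ppm. Those over 7 adipocyte markers were 4.68, 3.90, 6.22, 5.64 and 5.04 against 4.17 to 6.02. Animals 3 and 4 were thus the highest of the group for the muscle and adipocyte markers as well. The array of animal 3 also had the highest 3′ minus 5′ difference of the actin probe sets, 0.52 on the log2 scale, and the lowest poly-A spike-in mean, 6.48, of the 30 WT arrays. The part of other tissue, RNA quality and array quality in this was not tested.

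Across the 33 gene lists, with 470 genes measured, the median pooled difference ran from -0.25 (clock activators) to 0.12 (DNA replication), beside -0.02 over all genes, and 0 members of any list passed. Pooled over the weeks, most cell type marker lists had medians close to the value over all genes. The medians were -0.03 for 14 mucous, -0.02 for 14 ciliated, -0.06 for 14 alveolar type II, -0.01 for 11 alveolar type I and -0.06 for 19 endothelial markers, and -0.02, -0.03 and 0.00 for alveolar macrophage, neutrophil and T and NK cell markers. The sign turned in 9, 9 and 15 of the 31 settings for the macrophage, neutrophil and T and NK lists. Only 5 of the 15 neutrophil intervals lay within 1.5-fold. The weeks differed for mucous (-0.23 at 1 week and 0.06 at 4 weeks), ciliated (-0.11 and 0.04), type II (-0.12 and -0.03) and endothelial markers (-0.12 and -0.01), beside -0.04 and 0.00 over all genes. Skeletal and heart muscle markers had a median of -0.10. Sterol and fatty acid synthesis was among the lists with the most one-sided differences. Of its 20 genes 19 were lower at 120 than at 40 ppm, with a median of -0.10 that stayed between -0.14 and -0.05 over the 31 settings, while 6804 of all 17097 genes were higher. The -0.05 came without animal 3 at 120 ppm for 1 week. The list's median difference was -0.22 at 1 week and -0.04 at 4 weeks. Its median change from air was 0.49 at 40 ppm and 0.27 at 120 ppm at 1 week, and 0.08 and 0.06 at 4 weeks. At 40 ppm 4 of the 20 genes rose, Fdps (0.63), Lss (0.49), Fdft1 (0.44) and Fasn (0.42), and at 120 ppm 1 rose, Fdft1 (0.39), beside 2.29% and 3.28% of all genes that rose. These counts were 10 and 7 without animal 3 at 120 ppm for 1 week, and 3 and 0 without air animal 2 at 1 week, so they rested on single animals. Lss, the lanosterol synthase, differed by -0.31 between the levels (interval -0.53 to -0.09) and did not pass after adjustment.

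Heat shock and endothelial genes were called against air at 120 ppm and not at 40 ppm, with estimates of the same sign at both levels, and no member passed between the levels. Over all genes the share that fell was also higher, 2.46% at 120 ppm against 0.714% at 40 ppm. Of the 11 heat shock genes 0 fell at 40 ppm and 4 fell at 120 ppm, namely the chaperones Hspa1b (-1.13 and -1.41 at 40 and 120 ppm), Hsph1 (-0.68 and -0.85) and Hspb1 (-0.53 and -0.68) and the cold-induced RNA-binding protein Rbm3 (-0.32 and -0.54). The 40 ppm values of these 4 had limma adjusted p between 0.0529 and 0.0842, and 4 heat shock genes fell at 40 ppm and 7 at 120 ppm when air animal 1 at 1 week was left out. Of the 19 endothelial markers 0 changed at 40 ppm and 4 fell at 120 ppm, the tight junction protein Cldn5 (-0.24 and -0.41), Ednrb (-0.17 and -0.33), Tek (-0.19 and -0.27) and Flt1 (-0.17 and -0.25). The median change over the 19 markers was -0.29 at 40 ppm and -0.31 at 120 ppm at 1 week, and 0.01 and 0.00 at 4 weeks. The calls for Ednrb and Tek at 120 ppm were lost in 18 and 6 of the 30 fits that left out 1 animal, and the number fell to 2 without air animal 2 at 1 week. With a spread per group the calls for Hspa1b, Ednrb, Tek and Flt1 at 120 ppm were lost. Of 17 p53 targets 3 fell at each level, Cdkn1a (-0.92 and -1.10), Pmaip1 (-0.41 and -0.45) and Btg2 (-0.34 and -0.45), with 1 at 40 ppm when air animal 2 at 1 week was left out and with both calls for Pmaip1 lost when all 90 arrays were fitted. Of 14 alveolar type II markers, by contrast, 7 rose at 40 ppm and 3 at 120 ppm, beside 2.29% and 3.28% of all genes. The counts became 2 at 40 ppm without air animal 2 at 1 week and 6 at 120 ppm without animal 3 of that group at 1 week. A larger number of calls at one level is not a difference between the levels, and for these lists the median difference lay between -0.09 and -0.06.

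**Figure D5:**
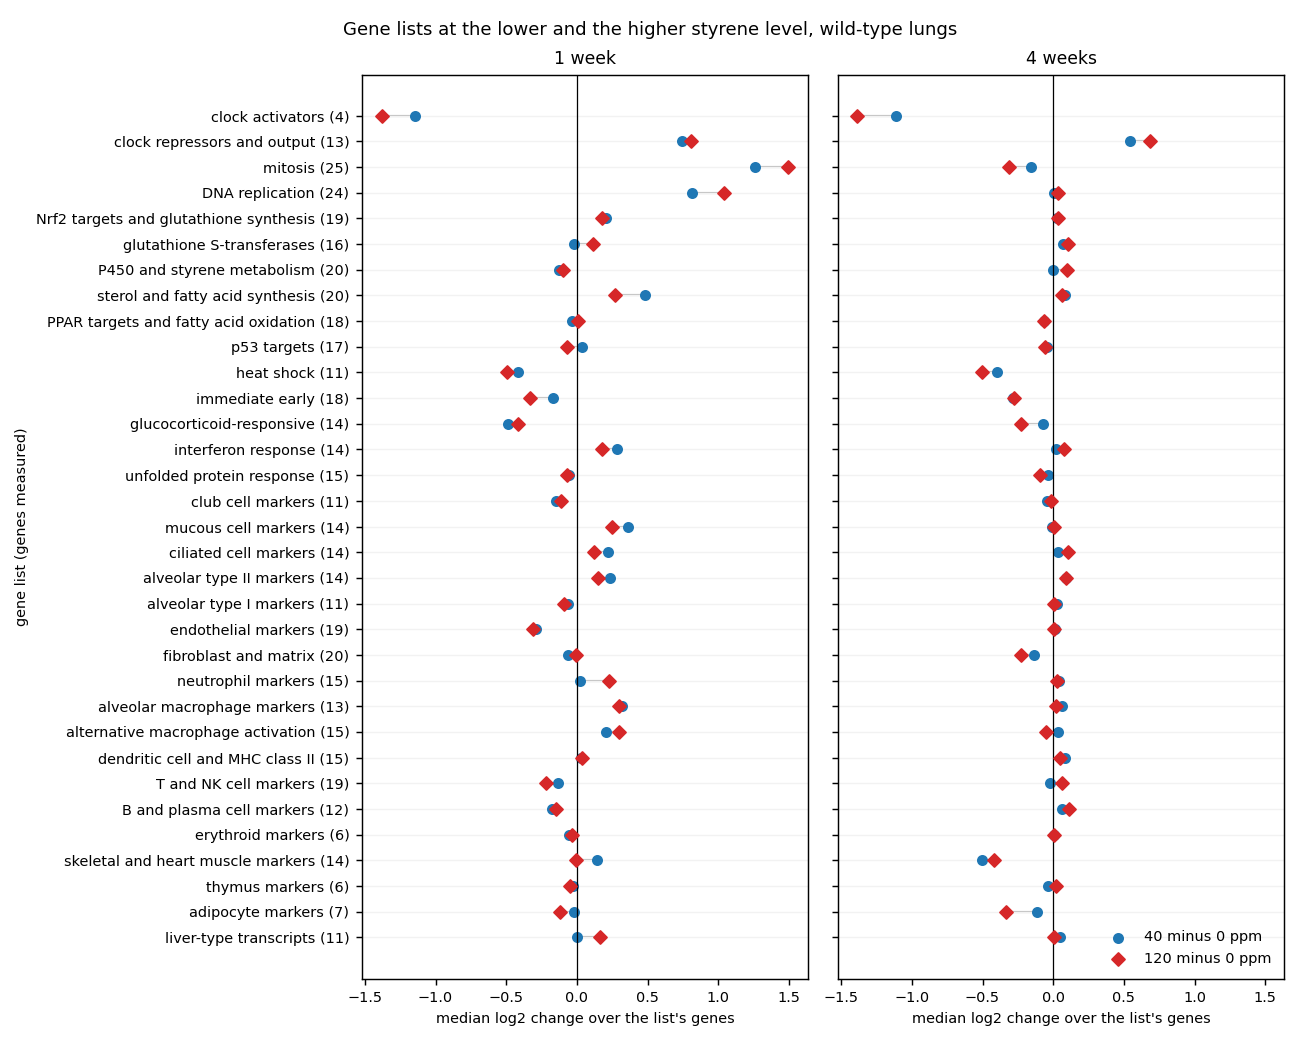
Median log2 change from air over each of 33 gene lists (x axis) at 40 ppm (blue circles) and 120 ppm (red diamonds), at 1 week on the left and 4 weeks on the right, with the number of genes measured in brackets. Both levels lie close together in most lists, and the widest distance at 1 week is that of mitosis, neutrophil, DNA replication, clock activator and sterol lists.

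The genes with the smallest p in the pooled comparison did not pass either, and 12 of the 16 named by that rule were dim, with a mean in all 4 exposed groups below 4.42, the lowest array median. Of the other 4, Serpind1 and Il1f9 also rose with styrene against air, and Ccdc115 (0.17) and Chst11 (-0.19), a chondroitin sulfotransferase, did not pass against air at either level. Serpind1 (heparin cofactor II, a thrombin inhibitor) measured 5.19, 5.23, 4.89, 5.01 and 4.87 at 40 ppm and 5.25, 5.54, 5.60, 5.69 and 5.30 at 120 ppm after 1 week. After 4 weeks it measured 5.92, 6.28, 6.14, 6.12 and 6.54 at 40 ppm and 6.86, 6.65, 6.53, 6.60 and 6.01 at 120 ppm. All 5 animals at 120 ppm were above all 5 at 40 ppm at 1 week, which held for one direction or the other in 78 genes (0.456%), and 3 of 5 were above the 40 ppm group at 4 weeks. Air animals lay at 4.46 to 5.43 at 1 week, where they overlapped both levels, and at 4.56 to 5.11 at 4 weeks. It rose by 0.80 ± 0.11 at 40 ppm and 1.19 ± 0.11 at 120 ppm, and the difference was 0.38 ± 0.10, with an interval from 0.18 to 0.58 and an adjusted p of 0.9999.

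Il1f9 (interleukin-36 gamma, an epithelial cytokine) measured 4.56, 4.79, 4.64, 4.43 and 4.74 at 40 ppm and 4.67, 4.86, 5.74, 5.13 and 5.31 at 120 ppm after 1 week. After 4 weeks it measured 4.97, 5.36, 5.99, 4.90 and 5.42 at 40 ppm and 5.81, 5.95, 5.64, 5.61 and 5.47 at 120 ppm. The groups overlapped at both times. The change was 0.55 ± 0.12 at 40 ppm and 0.99 ± 0.12 at 120 ppm, and the difference was 0.44 (interval 0.17 to 0.71), or 0.36 without animal 3 at 120 ppm for 1 week. Of the 34 genes taken from the earlier description of these data, which were chosen for their changes from air, 0 had groups at 40 and 120 ppm that did not overlap at 1 week, and 1 did at 4 weeks, where all 5 animals at 120 ppm were below those at 40 ppm for the mitotic kinase Pbk. Over all genes the share not overlapping at 4 weeks was 0.678%. Against air, a count that their choice fixed and from which nothing is read, 24 of the same 34 did not overlap at 40 ppm and 18 at 120 ppm after 1 week (6.91% and 2.64% of all genes), and 10 and 14 after 4 weeks (2.04% and 2.19%).

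The difference between the levels was tested against the same difference in the strains without Cyp2f2. Against the KO strain 0 genes passed (0%, with 507 or 2.97% at an unadjusted limma p under 0.05), and against the TG strain 1 gene passed (0.00585%, with 1613 or 9.43% at the unadjusted threshold). It was Emx2, a homeobox gene that was dim in all exposed WT groups, at -0.44 (limma adjusted p = 0.0175). The smallest p against KO belonged to Serpind1, Lss and Cplx3. Serpind1 differed by 0.38 between the levels in WT and by -0.20 in KO and -0.25 in TG, where it was not above air (-0.01 and -0.21 in KO at 40 and 120 ppm). For Dbp and Npas2 the estimates in WT were closer together between the levels than in the other strains. Dbp differed by 0.33 between the levels in WT, by 1.37 in KO and by 0.88 in TG, where it changed by 0.67 at 40 ppm and 2.04 at 120 ppm in KO and by 1.17 and 2.05 in TG. Npas2 differed by -0.41 in WT, -1.17 in KO and -0.84 in TG, with changes at 40 ppm of -1.79, -0.31 and -0.85. The WT minus KO difference was -1.04 ± 0.33 for Dbp and 0.75 ± 0.30 for Npas2, with unadjusted limma p of 0.00282 and 0.0152, and neither passed over all genes. Ces1g changed by -0.04 and 0.01 in KO, beside 2.01 and 2.50 in WT.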

How the data were processed

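Whole-lung RNA of 90 mice, 5 in each of 18 groups of strain, styrene level and time, was hybridised to 90 Affymetrix HT MG-430 PM arrays. The deposited values are log2 intensities, and the submitters' processing notes name RMA and Partek without versions. They were used as deposited, so array background, scanner signal and detection calls were not analysed here, and the number of arrays limits the precision. The labels call the animals of a group biological replicates and name no shared litter, cage or array batch.

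Of 45141 probe sets, 104 controls were left out, 28898 had 1 gene symbol, 551 several and 15588 none listed in the platform table; the brightest probe set stood for each of 17097 genes. With limma 3.58.1 in R 4.3.3, lmFit and eBayes were run on 20 arrays with level and week as terms (17 residual degrees of freedom). Contrasts within a week used 4 group means, those of WT against 0 ppm used 30 WT arrays (24 degrees of freedom), and the strain tests used 40 arrays (32 degrees of freedom). P-values were adjusted over all genes by Benjamini-Hochberg at 0.05. Intervals are 95% and unadjusted. The contrast of both levels against air was added after the data had been seen.

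Genes were named by rule: the 34 measured of a list of single-level genes, the 16 smallest p of the pooled comparison, the 3 smallest of each other test, the largest past the threshold, and up to 4 members of each gene list. Some genes shown animal by animal (Per3, Ciart, Serpind1 and Il1f9) were added after their values were seen. The genes and lists were chosen with earlier results of these data known. Alternatives were another normalization, probe set choice, filter, variance model, array weights, covariates, arrays fitted, a block for the replicate number, and leaving out single animals. The scripts were tested on simulated data. Promoter windows and names came from RefSeq (GRCm38.p6).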

Additional observations from a re-analysis of the deposited data

Results flagged for a closer look

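Within groups of 5 animals, 144 combinations of a shown gene or array measure and a WT group were examined for an animal far from the other 4, and 5 were found, where chance gives about 1 in 20 groups. Npas2 of air animal 2 at 1 week was 5.34, below the other 4 at 6.39 to 6.54. Nfil3 of the same animal was 6.44, against 7.15 to 7.27. Nqo1 of animal 5 at 40 ppm for 1 week was 5.93, against 6.39 to 6.49, which placed it nearer to air than the rest of its group. The array median of air animal 1 at 1 week was 4.66, against 4.82 to 4.84, and that of animal 3 at 120 ppm for 1 week was 4.42, against 4.74 to 4.82.

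Emx2 was singled out because the difference between 120 and 40 ppm was not the same in WT as in TG by the test of that difference, at -0.44 on the log2 scale, with the gene dim in all exposed WT groups.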

How the results depend on the processing

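The count of 0 genes between 120 and 40 ppm was 0 in all 31 settings, with 184 to 838 genes at an unadjusted p under 0.05, and the counts at 1 week, at 4 weeks and for WT minus KO were also 0 in each. The difference between the times was 0 apart from 1 gene with all 90 arrays fitted. Genes with intervals within 1.5-fold numbered 16754 to 16931 with 1 animal left out and 10140 of the fewer genes left after dim ones were dropped. Against air, array weights gave 2003 genes at 40 ppm, 1750 at 120 ppm, 2957 for both and 526 for the departure from proportion. The poly-A covariate gave 938, 2131, 2497 and 179. A spread per group gave 1238 at 40 ppm, 587 at 120 ppm and 309 for the departure, which was 183 with all 90 arrays. WT minus TG gave 0 with dim genes left out or a spread per group, and 2 with all 90 arrays or array weights. With 1 animal left out the counts were 307 to 1044 at 40 ppm, 552 to 2436 at 120 ppm, 777 to 2789 for both, 42 to 198 for the departure and 1 to 2 for WT minus TG, where 2 came without animals 1 or 3 of WT at 120 ppm for 1 week, TG animal 4 at 120 ppm for 1 week or TG animal 1 at 40 ppm for 4 weeks. Of 67 calls against air of genes named in the text, a set added after the data had been seen, 60 held in every fit that left out 1 animal and 7 were lost in at least 1, those of Btg2, Fdft1, Gpx2 and Pmaip1 at 40 ppm and of Ednrb, Fdft1 and Tek at 120 ppm. In the other settings 8 calls were lost in at least 1: Ciart, Ednrb, Fdft1, Flt1, Hspa1b and Tek at 120 ppm with a spread per group (Ednrb and Flt1 also with the median over probe sets), and Pmaip1 at both levels with all 90 arrays. The median over probe sets turned Nr4a3 to 0.15 at 40 ppm and to -0.48 for the departure. Except where fewer genes were tested, the cause was not tested.

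The labels use the same replicate numbers in each group and do not say that they pair animals. Correlations of same-numbered deviations ran from -0.28 to 0.48, and 16 of 30 pairs were over 0.1. Of the 20 exposed WT arrays 9 correlated best with an array of their own number. Whether the numbers carry a shared structure was not tested. With the replicate block the counts were 0 between the levels (742 unadjusted), 536 at 40 ppm, 996 at 120 ppm, 1370 for both and 88 for the departure.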
